A study of Mus musculus and Homo sapiens with 32 samples.

Results

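The protein-coding Hox genes were followed through an experiment on obstructed mouse kidneys. They were taken from its count table as every protein-coding gene named Hoxa, Hoxb, Hoxc or Hoxd followed by a position number. The rule found 39 genes among the 57180 in the table, 21608 of which are protein coding. The rule uses names and no measured value. The kidneys came from Pcmt1 tKO and Pcmt1 fl/fl mice. The labels do not spell out what tKO stands for, and the Cre driver, strain, age, dose and days of obstruction are not among the details that the sources give. Pcmt1 encodes an enzyme that repairs isoaspartyl residues in aged proteins. Within each genotype there were 3 treatments, written here as UUO+LY (unilateral ureteral obstruction with LY2109761, an inhibitor of the TGF-beta type I and type II receptor kinases), UUO (obstruction with DMSO, the solvent) and sham (sham operation with DMSO). Unilateral ureteral obstruction ties off 1 ureter and is a standard model of kidney fibrosis. Each of the 6 groups had 3 libraries, 18 in all, from total RNA of kidney. The labels do not say that each library is a separate animal, so the p-values measure the spread between these libraries.

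Hox genes encode homeodomain transcription factors that give cells along the head-to-tail axis their regional identity. In the mouse they sit in 4 clusters, Hoxa to Hoxd, in which genes of low position number lie at one end and are used towards the head, and genes of high number lie at the other end and are used towards the tail. Genes with the same number in different clusters are paralogues with related proteins, and they bind DNA together with TALE cofactors of the Pbx, Meis and Pknox families. Adult kidney keeps a Hox code of the trunk. Hoxa11, Hoxc11 and Hoxd11 act together in the mouse to induce the metanephric kidney, the paralogues of position 10 are needed in its stroma, and Hoxb7 is the gene whose promoter is widely used to mark ureteric bud and collecting duct.

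The libraries held 13015669 to 19565376 counts. Mitochondrially encoded genes took 9.88 to 16.2% of the counts in tKO UUO and 33.7, 49.7 and 69.5% in the tKO sham libraries, and 7.43 to 7.67% in fl/fl UUO and 30.8 to 35.5% in fl/fl sham. CPM values below are counts scaled to library size, with library sizes adjusted by TMM, a scaling set by the bulk of genes, whose factors ran from 0.352 to 1.329, and each change is relative to the bulk of genes. Pcmt1 itself had 23.1, 28 and 27.6 CPM in tKO UUO+LY, against 31.3, 25.7 and 39.0 CPM in fl/fl UUO+LY. It had 26.0, 24.7 and 26.1 CPM in tKO UUO and 49.3, 22.7 and 24.3 CPM in tKO sham, against 41.4, 35.3 and 40.6 CPM in fl/fl UUO and 48.9, 43.4 and 42.8 CPM in fl/fl sham. The library labelled tKO sham replicate 1 thus sat at the fl/fl level, against its label, and tKO sham replicate 3 stood apart by its mitochondrial share. The library labelled fl/fl UUO+LY replicate 3 (25.7 CPM) sat within the tKO range. Counts of Hox genes and of the gene lists that use them are also given without each. The summed Hox signal was 895.9 to 1494 CPM per library.

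The homeoboxes of the position 11 paralogues are shown because all 3 genes rose in obstructed kidney of both genotypes. Each is the coding sequence of the homeodomain from a GENCODE M21 transcript (GRCm38), 180 bases or 60 codons, read 5′ to 3′ on the coding strand. Capitals mark the 18 bases for the conserved end of the DNA-contacting recognition helix.
Hoxd11: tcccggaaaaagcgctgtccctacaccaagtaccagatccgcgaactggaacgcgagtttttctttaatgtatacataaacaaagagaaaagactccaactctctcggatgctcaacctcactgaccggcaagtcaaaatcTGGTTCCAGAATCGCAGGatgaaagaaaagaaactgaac
Hoxa11: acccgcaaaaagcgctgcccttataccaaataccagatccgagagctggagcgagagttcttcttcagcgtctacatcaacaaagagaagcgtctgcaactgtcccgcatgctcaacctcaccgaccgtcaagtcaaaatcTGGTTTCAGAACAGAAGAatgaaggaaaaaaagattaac
Hoxc11: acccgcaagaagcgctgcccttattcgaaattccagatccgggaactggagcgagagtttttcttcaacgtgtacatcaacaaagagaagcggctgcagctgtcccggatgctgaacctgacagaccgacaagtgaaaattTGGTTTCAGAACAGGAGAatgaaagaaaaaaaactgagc
Hoxa11 and Hoxc11 shared 156 of these bases (86.7%), Hoxa11 and Hoxd11 shared 145 (80.6%), and Hoxc11 and Hoxd11 shared 143 (79.4%). Hoxd8, which lies in the same cluster as Hoxd11 but fell in obstructed kidney, shared 106 bases with Hoxd11 (58.9%).

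Promoters of the Hoxd cluster genes that moved in opposite directions are shown next, as the 250 bases before a transcript start in RefSeq (GRCm38.p6), plus strand. In Hoxd11 (chr2:74682073-74682322) capitals mark the Pbx-Hox motif TGATNNAT, read here on the other strand. This window lies within the annotated span of Hoxd11 (74679557 to 74687016). The other Hoxd11 window (chr2:74679308-74679557), not printed, held no match to any motif searched. In Hoxd8 (chr2:74704365-74704614) and Hoxd4 (chr2:74721728-74721977) capitals mark the nuclear receptor motif AGGTCA on either strand. The Hoxd4 window lies within the annotated spans of Hoxd4 (74711929 to 74729160) and Hoxd3 (74711927 to 74748442).
Hoxd11: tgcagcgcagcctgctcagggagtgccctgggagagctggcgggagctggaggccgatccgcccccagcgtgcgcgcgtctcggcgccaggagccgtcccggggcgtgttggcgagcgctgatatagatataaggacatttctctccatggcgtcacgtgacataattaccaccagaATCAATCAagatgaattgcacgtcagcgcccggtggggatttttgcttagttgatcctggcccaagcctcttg
Hoxd8: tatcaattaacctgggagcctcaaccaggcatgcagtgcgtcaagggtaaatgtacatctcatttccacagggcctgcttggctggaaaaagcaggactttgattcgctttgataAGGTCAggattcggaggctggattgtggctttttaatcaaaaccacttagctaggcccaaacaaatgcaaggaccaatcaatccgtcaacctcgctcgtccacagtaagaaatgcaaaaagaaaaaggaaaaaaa
Hoxd4: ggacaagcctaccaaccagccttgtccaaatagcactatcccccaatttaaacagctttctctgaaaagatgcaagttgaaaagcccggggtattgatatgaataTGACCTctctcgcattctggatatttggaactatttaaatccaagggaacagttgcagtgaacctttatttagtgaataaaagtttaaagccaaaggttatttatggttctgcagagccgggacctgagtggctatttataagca
RefSeq promoter windows matched 22 of the 39 genes, with 24 windows. TGATNNAT was in 4 of these windows (Hoxa2, Hoxb1, Hoxb8 and 1 of the 2 Hoxd11 windows) and in 7.68% of 32851 mouse promoter windows. AGGTCA was in 6 (Hoxb4, Hoxc4, Hoxd3, Hoxd4, Hoxd8 and Hoxd10) and in 14% of all windows. Of these genes, Hoxd10 was called higher in obstructed tKO kidney. The Meis motif TGACAG was in 2 (Hoxa2 and Hoxa3) and in 15.9% of all, and the Smad palindrome GTCTAGAC in 0 and in 0.167%. Both strands were searched, and a match describes letters, not a site in use.

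Between genes, levels were compared per length, as the deposited FPKM (fragments per length and depth). The Hoxb cluster (chromosome 11, 96194316 to 96368256, GRCm38) held 51.7% of the summed mean Hox FPKM, with 176 FPKM over its 10 genes. Hoxd (chromosome 2, 74668310 to 74765142) held 21.8% with 74.2 FPKM, Hoxa (chromosome 6, 52155590 to 52260880) 16.4% with 55.9 FPKM and Hoxc (chromosome 15, 102921103 to 103036852) 10.2% with 34.6 FPKM. The highest mean of each cluster lay between positions 5 and 10 (Hoxa5, Hoxb8, Hoxc10 and Hoxd9), and the genes at the tail end of each cluster were nearly silent. Of the 39 genes, 31 had enough counts to be tested, among 19256 tested genes in all. The other 8 had at most 43 counts over all 18 libraries: Hoxd1 had 43, Hoxc13 had 10, Hoxb1 had 5, Hoxd13 had 2 and Hoxa13 had 1, while Hoxb13, Hoxc12 and Hoxd12 had 0.

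**Figure D1:**
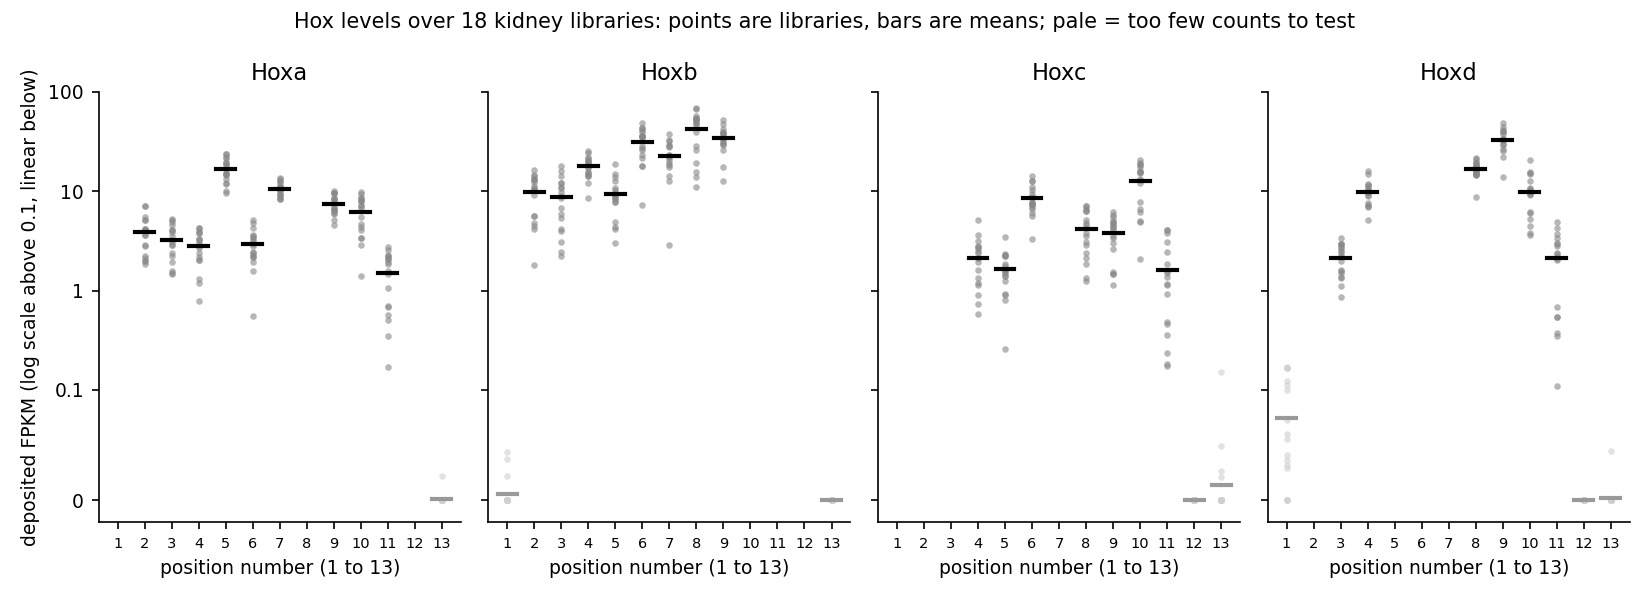
Deposited FPKM of Hox genes by cluster (panels) and position number (x axis, 1 to 13); the y axis is logarithmic above 0.1 FPKM and linear below. Points are the 18 libraries, bars are means and pale symbols mark genes with too few counts to test. The highest means lie at Hoxb8 (42.1 FPKM), Hoxb9 (34.1 FPKM) and Hoxd9 (33.2 FPKM), and positions 12 and 13 lie near 0.

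The 6 genes with the highest mean were Hoxb8 (42.1 FPKM), Hoxb9 (34.1), Hoxd9 (33.2), Hoxb6 (31.4), Hoxb7 (22.7) and Hoxb4 (17.9). Hoxb8, a trunk Hox gene also used in blood cell precursors, had 66.8, 53.7 and 53.0 FPKM in tKO UUO+LY, 52.5, 47.2 and 68.7 in tKO UUO, 26.2, 28.4 and 11 in tKO sham, 57.5, 49.5 and 48.0 in fl/fl UUO+LY, 54.5, 53.6 and 39.1 in fl/fl UUO and 19.2, 14 and 15.8 in fl/fl sham. Every obstructed library stood above every sham library on this scale. FPKM is set on total depth, in which the sham libraries have more mitochondrial counts. Hoxb9 had 42.7, 51.8 and 38.5 FPKM in tKO UUO+LY, 39.8, 31.8 and 47.2 in tKO UUO, 35, 38.2 and 12.6 in tKO sham, 30.0, 34.9 and 34.7 in fl/fl UUO+LY, 38.6, 33.9 and 31.0 in fl/fl UUO and 29.5, 17.6 and 25.8 in fl/fl sham. Its obstructed and sham libraries overlapped in tKO but not in fl/fl kidneys. Hoxd9 had 40.2, 37.5 and 33.0 FPKM in tKO UUO+LY, 44.0, 41.7 and 48.5 in tKO UUO, 31.8, 26.6 and 13.9 in tKO sham, 40, 32.7 and 33.9 in fl/fl UUO+LY, 29.0, 33.7 and 33.3 in fl/fl UUO and 29.7, 21.9 and 25.6 in fl/fl sham. Hoxb6 had 41.5, 28.4 and 21.8 FPKM in tKO UUO+LY, 39.7, 35.9 and 49.3 in tKO UUO, 26.2, 23.0 and 7.29 in tKO sham, 42.9, 43.3 and 35 in fl/fl UUO+LY, 36.0, 36.4 and 35.5 in fl/fl UUO and 27.1, 18.1 and 18.1 in fl/fl sham. Both genes were lowest in tKO sham replicate 3, the library with the largest mitochondrial share. Hoxb7 had 29.6, 28.5 and 22.1 FPKM in tKO UUO+LY, 23.1, 18.5 and 23.2 in tKO UUO, 20.5, 14.4 and 2.91 in tKO sham, 22.8, 17.7 and 27.9 in fl/fl UUO+LY, 37.6, 32.8 and 31.9 in fl/fl UUO and 19.3, 12.6 and 22.4 in fl/fl sham. Hoxb4 had 24.1, 15.8 and 14.1 FPKM in tKO UUO+LY, 21.6, 20.1 and 25.7 in tKO UUO, 17.7, 19.0 and 8.66 in tKO sham, 21.6, 20.3 and 18.8 in fl/fl UUO+LY, 17.3, 20.3 and 15 in fl/fl UUO and 15.4, 14.2 and 12.1 in fl/fl sham. The ranges of neighbours in this order overlapped over the 18 libraries. Towards the other end of the tested genes stood Hoxa11 (1.5 FPKM), Hoxc11 (1.61) and Hoxc5 (1.64), followed by Hoxd3 and Hoxd11 at 2.14 each.

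Hox genes were called in both directions in obstructed kidney. In tKO kidneys 7 of the 31 tested genes rose and 5 fell in UUO against sham, which is 38.7% of them, and 41% of all tested genes were called (21.6% higher and 19.4% lower). In fl/fl kidneys 6 rose and 5 fell, or 35.5%, where 39.6% of all tested genes were called (20.9% higher and 18.7% lower). The split into higher and lower rests on the scaling: with column totals as library size, 21 were called higher and 0 lower in tKO and 14 higher and 0 lower in fl/fl, where 60.7% and 44.4% of all tested genes were called higher. The share of Hox genes called was near that of all genes, and the median Hox change was 0.01 (log2) in tKO and 0.03 in fl/fl, against 0.02 over all genes in each. Calls are those of edgeR's quasi-likelihood test with Benjamini-Hochberg adjusted p under 0.05 over all tested genes. Hoxd11, Hoxa11, Hoxc11, Hoxc10 and Hoxb2 rose in both genotypes, which is 5 of 7 in tKO and 5 of 6 in fl/fl. Hoxd3, Hoxd4, Hoxd8 and Hoxa7 fell in both, 4 of 5 in each genotype, although with column totals as library size Hoxd4 and Hoxd8 in tKO turned to 0.21 and 0.28 (log2). No gene was called in opposite directions, and 26 of 31 estimates had the same sign. In these bulk samples fewer cells of a type and less RNA per cell cannot be told apart.

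By position, 6 of the 10 tested genes of positions 9 to 13 rose in tKO and 0 fell, and 4 rose and 1 fell in fl/fl. Of the 11 genes of positions 5 to 8, 0 rose and 2 fell in tKO, and 1 rose and 2 fell in fl/fl. Of the 10 genes of positions 1 to 4, 1 rose and 3 fell in tKO, and 1 rose and 2 fell in fl/fl. Of all tested genes 21.6% were called higher and 19.4% lower in tKO, and 20.9% higher and 18.7% lower in fl/fl. No gene of position 12 or 13 had enough counts to be tested. These splits rest on the scaling: with column totals as library size, 0 Hox genes were called lower in either genotype. All 3 paralogues of position 11 rose in both genotypes, with a median log2 change of 1.34 in tKO and 1.32 in fl/fl. The 3 paralogues of position 10 all rose in tKO (median 0.63), and 1 of 3 rose in fl/fl (median 0.33). Of the 4 paralogues of position 9, 0 were called in tKO and 1 fell in fl/fl, with medians of -0.31 in tKO and -0.33 in fl/fl.

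**Figure D2:**
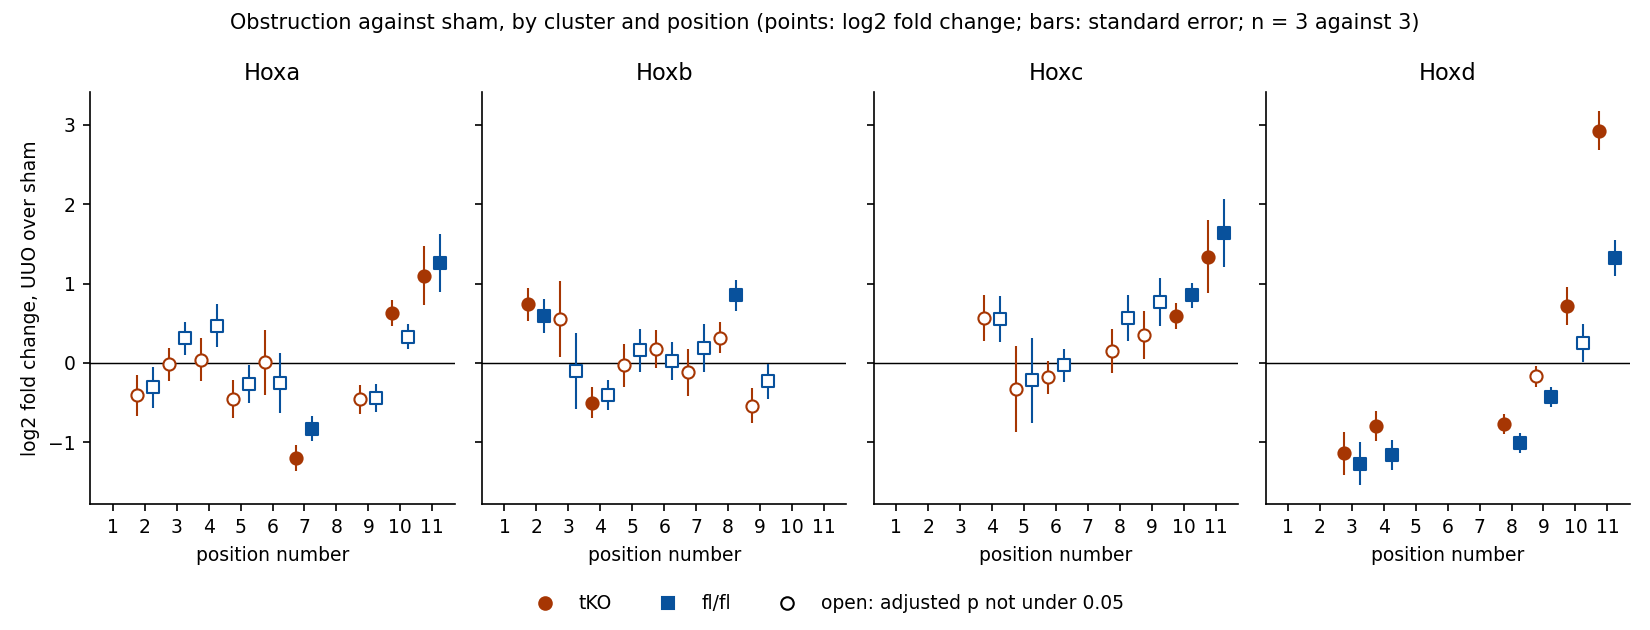
Log2 fold change of UUO over sham (y axis) for tested Hox genes by cluster and position number (x axis). Circles are tKO and squares fl/fl, bars are standard errors, and filled symbols have an adjusted p under 0.05 (n = 3 against 3). Position 11 lies highest in Hoxa, Hoxc and Hoxd, and Hoxd3, Hoxd4 and Hoxd8 lie below 0, although with column totals as library size Hoxd4 and Hoxd8 in tKO had log2 changes of 0.21 and 0.28.

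The Hoxd cluster held genes called in each direction. Of its 6 tested genes, 2 rose and 3 fell in tKO, and 1 rose and 4 fell in fl/fl, or 83.3% called in each. Of all tested genes 41% were called in tKO and 39.6% in fl/fl. The 6 genes are neighbours, and Hoxd3 and Hoxd4 share exons, so they are not separate observations. Hoxd11 (ENSMUSG00000042499, chromosome 2, 74679557 to 74687016) had 12.5, 17.1 and 15.8 CPM in tKO UUO, against 2.01, 2.39 and 1.4 CPM in tKO sham. The fl/fl libraries had 8.04, 8.25 and 10.5 CPM in UUO, against 4.19, 3.4 and 3.09 CPM in sham. The UUO libraries lay above the sham libraries without overlap in both genotypes. The log2 fold change was 2.93 in tKO (SE 0.25, edgeR adjusted p = 5.42e-07) and 1.32 in fl/fl (SE 0.23, adjusted p = 0.000249), and each call was kept without any 1 library. Hoxd10, its neighbour and a paralogue of the kidney stroma group, had 21.4, 29.4 and 22.8 CPM in tKO UUO, against 9.84, 16.6 and 18.5 CPM in tKO sham. It rose by 0.72 (log2, SE 0.24, edgeR adjusted p = 0.0247), and the call was lost without tKO sham replicate 1 (adjusted p = 0.103) or tKO UUO replicate 2 (0.101). In fl/fl Hoxd10 had 14.4, 15.3 and 14.7 CPM in UUO and 15.5, 9.69 and 12.1 CPM in sham, which overlap (log2 0.25, edgeR adjusted p = 0.434).

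Hoxd8, Hoxd4 and Hoxd3, towards the other end of the same cluster, fell. Hoxd8 (ENSMUSG00000027102, chromosome 2, 74704615 to 74707933) had 66.3, 67.9 and 80.0 CPM in tKO UUO, against 125, 116 and 124 CPM in tKO sham. Its fl/fl values were 60.9, 57.5 and 57.1 CPM in UUO, against 145, 100 and 109 CPM in sham. The groups did not overlap in either genotype, with log2 fold changes of -0.77 in tKO (SE 0.13, edgeR adjusted p = 0.000164) and -1.01 in fl/fl (SE 0.13, adjusted p = 1.52e-05). Hoxd4 (ENSMUSG00000101174, chromosome 2, 74711929 to 74729160), a gene of neck vertebrae and hindbrain, had 44.6, 38.3 and 69.9 CPM in tKO UUO, against 94.4, 95.1 and 76.9 CPM in tKO sham. Among fl/fl kidneys it had 30.8, 36.4 and 31.7 CPM in UUO, against 82.5, 72.1 and 65.8 CPM in sham. It fell in both, by 0.80 in tKO (log2, SE 0.19, edgeR adjusted p = 0.00305) and by 1.16 in fl/fl (SE 0.19, adjusted p = 0.000184), with no overlap. Hoxd3 (ENSMUSG00000079277, chromosome 2, 74711927 to 74748442) had 18, 11 and 28.5 CPM in tKO UUO, against 37.0, 43.2 and 47 CPM in tKO sham. In fl/fl it had 7.39, 8.92 and 12.3 CPM in UUO, against 23.1, 19.9 and 25.9 CPM in sham. It fell by 1.14 in tKO (SE 0.27, edgeR adjusted p = 0.00323) and by 1.27 in fl/fl (SE 0.27, adjusted p = 0.00165). The calls of Hoxd8, Hoxd4 and Hoxd3 were kept without any 1 library. Hoxd9 had 51.5, 55.9 and 56.5 CPM in fl/fl UUO, against 86.4, 65.0 and 68.7 CPM in fl/fl sham, and fell by 0.43 (log2, SE 0.13, edgeR adjusted p = 0.0141). Leaving out replicate 1 of fl/fl sham (adjusted p = 0.0967) or of fl/fl UUO (0.0616) ended that call, and column totals turned it to 0.32. In tKO Hoxd9 had 70.8, 69.8 and 84.8 CPM in UUO and 81.6, 86.9 and 84.3 CPM in sham, a log2 difference of -0.17 (edgeR adjusted p = 0.323).

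Hoxd3 and Hoxd4 share exons, so their counts cannot be fully told apart. Same-strand gene models, Gm28230 and each other, cover 62.3% of the exon bases of Hoxd3 and 52.3% of those of Hoxd4. With the counts of all 3 summed to 1 feature, obstruction lowered the locus by 0.67 in tKO (log2, SE 0.19, edgeR adjusted p = 0.0114) and by 1.02 in fl/fl (SE 0.19, adjusted p = 0.000629).

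The falls are relative to the bulk of genes. With column totals as library size the median of all tested genes moved to 1.06 in tKO and 0.76 in fl/fl (log2, UUO over sham). On that scale the calls of Hoxd3, Hoxd4, Hoxd8 and Hoxa7 were lost in both genotypes, and the estimates of Hoxd8 and Hoxd4 in tKO turned to 0.28 and 0.21, which is below that median. A ratio within a library does not depend on its scaling. Hoxd11 gave 18.8, 25.2 and 19.8 counts for every 100 Hoxd8 counts in tKO UUO, against 1.6, 2.06 and 1.13 in tKO sham. In fl/fl it gave 13.2, 14.3 and 18.3 in UUO, against 2.89, 3.39 and 2.84 in sham. In the UUO+LY libraries it gave 19.1, 12.1 and 11.2 in tKO and 14.1, 11.7 and 13.3 in fl/fl. Every obstructed library therefore had more Hoxd11 for its Hoxd8 than every sham library. Hoxd11 was called higher and Hoxd8 lower in these same libraries, so the ratio restates those changes and is no separate test.

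**Figure D3:**
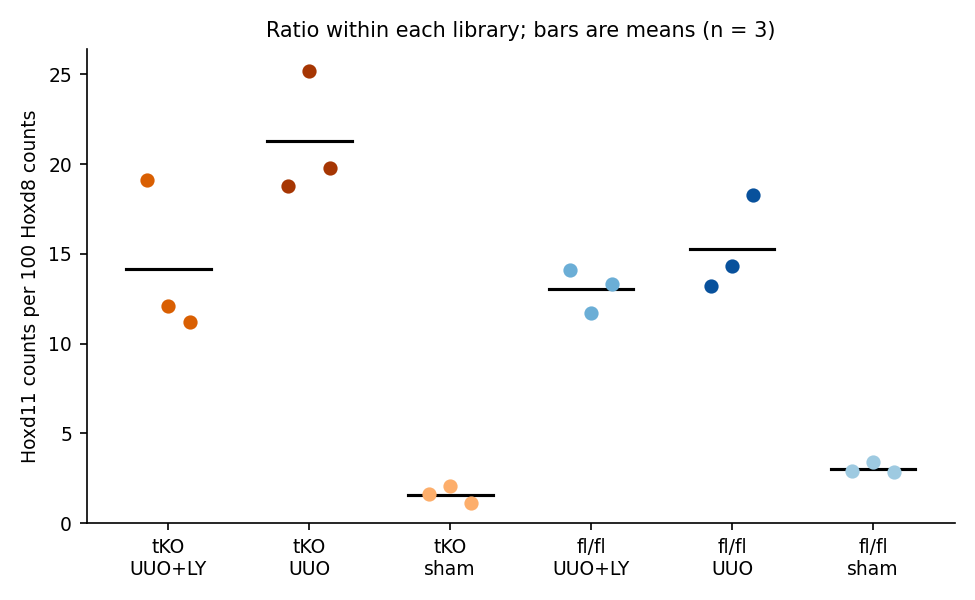
Hoxd11 counts for every 100 Hoxd8 counts (y axis, from 0) in each library, by group; bars are means of 3 libraries. All 12 obstructed libraries lie between 11.2 and 25.2, and the 6 sham libraries between 1.13 and 3.39. Hoxd11 was called higher and Hoxd8 lower in these same libraries, so the ratio is no separate test.

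The other paralogues of position 11 rose too, at low levels. Hoxa11 (ENSMUSG00000038210, chromosome 6, 52242106 to 52245810) had 8.42, 7.81 and 8.02 CPM in tKO UUO, against 3.58, 3.43 and 4.39 CPM in tKO sham. The fl/fl libraries had 5.72, 7.03 and 7.24 CPM in UUO, against 3.41, 1.04 and 3.86 CPM in sham. The UUO libraries lay above the sham libraries in both genotypes, with log2 fold changes of 1.10 in tKO (SE 0.37, edgeR adjusted p = 0.0244) and 1.26 in fl/fl (SE 0.36, adjusted p = 0.0115). In tKO the call was lost without tKO sham replicate 1 (adjusted p = 0.0662), tKO sham replicate 2 (0.076) or tKO UUO replicate 1 (0.0548). The antisense gene Hoxa11os lies over 35% of the exon bases of Hoxa11, and no source used states the strand setting of the counting, so reads of the pair cannot be told apart. Hoxc11 (ENSMUSG00000001656, chromosome 15, 102954427 to 102957708) had 2.81, 1.86 and 2.6 CPM in tKO UUO, against 1.12, 0.727 and 0.997 CPM in tKO sham. Its fl/fl values were 1.55, 2.13 and 4.98 CPM in UUO, against 0.995, 0.518 and 1.22 CPM in sham. It rose by 1.34 in tKO (log2, SE 0.46, edgeR adjusted p = 0.0289) and by 1.64 in fl/fl (SE 0.43, adjusted p = 0.00687), with no overlap between groups. In tKO the call was lost without tKO sham replicate 2 (adjusted p = 0.106), tKO sham replicate 3 (0.0555), tKO UUO replicate 1 (0.0763) or tKO UUO replicate 3 (0.0601).

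**Figure D4:**
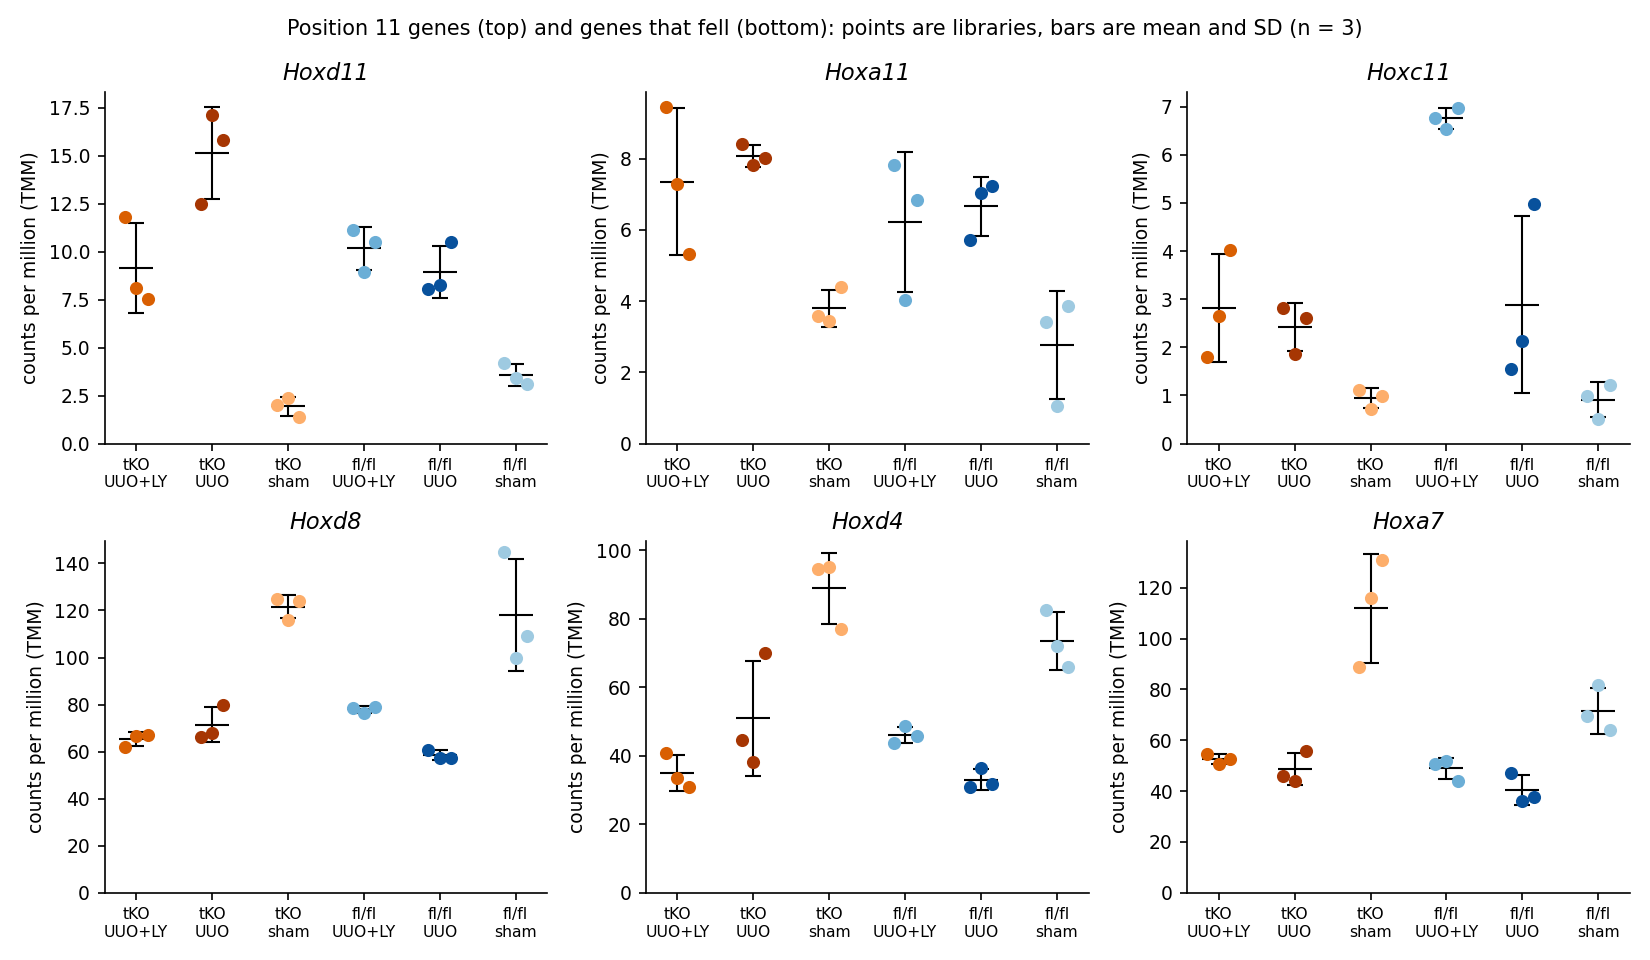
CPM on TMM-scaled library size (y axes, from 0) of the position 11 genes Hoxd11, Hoxa11 and Hoxc11 (top) and of Hoxd8, Hoxd4 and Hoxa7 (bottom) in each library, by group; bars are mean and SD of 3 libraries. In both genotypes the UUO points lie above the sham points in the top row and below them in the bottom row; with column totals as library size the Hoxd8 and Hoxd4 changes in tKO were 0.28 and 0.21 (log2).

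Of the position 10 genes, Hoxc10 (ENSMUSG00000022484, chromosome 15, 102966796 to 102971893), known in lumbar motor neurons, had 18.8, 23.2 and 19.1 CPM in tKO UUO, against 14.2, 14.7 and 11.4 CPM in tKO sham. Among fl/fl kidneys it had 32.5, 28.6 and 27.9 CPM in UUO, against 20.2, 13 and 16 CPM in sham. It rose by 0.59 in tKO (log2, SE 0.16, edgeR adjusted p = 0.0086) and by 0.85 in fl/fl (SE 0.16, adjusted p = 0.000559), and both calls were kept without any 1 library. Hoxa10, a gene of the reproductive tract and kidney stroma, had 47.5, 35.8 and 47.2 CPM in tKO UUO, against 27.5, 30.0 and 26.7 CPM in tKO sham. It rose there by 0.63 (SE 0.16, edgeR adjusted p = 0.00509), also without any 1 library. In fl/fl Hoxa10 had 48.6, 43.1 and 43.0 CPM in UUO and 37.7, 31.9 and 37.4 CPM in sham, and its log2 difference of 0.33 did not pass (edgeR adjusted p = 0.109). The fl/fl libraries did not overlap either.

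Hoxa7 (ENSMUSG00000038236, chromosome 6, 52214491 to 52221854), a gene of thoracic identity, fell in both genotypes. It had 45.9, 44.0 and 55.8 CPM in tKO UUO, against 88.7, 116 and 131 CPM in tKO sham. In fl/fl it had 47, 36.2 and 37.8 CPM in UUO, against 69.5, 81.6 and 63.9 CPM in sham. The change was -1.20 in tKO (log2, SE 0.16, edgeR adjusted p = 2.41e-05) and -0.83 in fl/fl (SE 0.16, adjusted p = 0.000576), kept without any 1 library. Hoxaas3 lies antisense over 20.4% of its exon bases. Within the Hoxa cluster, Hoxa11 gave 18.3, 17.7 and 14.4 counts for every 100 Hoxa7 counts in tKO UUO, against 4.03, 2.96 and 3.35 in tKO sham, and 12.2, 19.4 and 19.1 in fl/fl UUO, against 4.91, 1.27 and 6.04 in fl/fl sham. This ratio too sets a gene called higher against a gene called lower, so it is no separate test. The other 7 tested Hoxa genes were not called in either genotype.

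The Hoxb cluster, which holds the highest levels, had 1 gene called higher and 1 lower of 8 in tKO, and 2 higher and 0 lower in fl/fl. This is 25% in each, where 41% of all tested genes were called in tKO and 39.6% in fl/fl. Hoxb2, a hindbrain gene, had 48.1, 42.7 and 63.9 CPM in tKO UUO, against 32.3, 35.3 and 24.7 CPM in tKO sham. The fl/fl libraries had 58.1, 38.2 and 40.6 CPM in UUO, against 36.5, 27.6 and 26.8 CPM in sham. It rose by 0.74 in tKO (log2, SE 0.21, edgeR adjusted p = 0.00994) and by 0.59 in fl/fl (SE 0.21, adjusted p = 0.0327). The tKO call was lost without tKO UUO replicate 3 (adjusted p = 0.0546), and the fl/fl call without sham replicate 2 (0.105), sham replicate 3 (0.11) or UUO replicate 1 (0.181) of that genotype. Hoxb8 (ENSMUSG00000056648, chromosome 11, 96281905 to 96285315) had 150, 137 and 102 CPM in fl/fl UUO, against 86.2, 64.2 and 65.7 CPM in fl/fl sham, and rose by 0.85 (SE 0.19, edgeR adjusted p = 0.00238), kept without any 1 library. In tKO it had 130, 122 and 185 CPM in UUO and 104, 144 and 103 CPM in sham, which overlap (log2 0.32, edgeR adjusted p = 0.199). Hoxb4 fell in tKO, with 41.8, 40.4 and 54.0 CPM in UUO, against 54.6, 74.6 and 63.2 CPM in sham (log2 -0.50, SE 0.19, edgeR adjusted p = 0.0477). The call was lost without tKO sham replicate 2 (adjusted p = 0.19), tKO sham replicate 3 (0.0816), tKO UUO replicate 1 (0.142) or tKO UUO replicate 2 (0.159), and with column totals the estimate turned to 0.57. Hoxb6, Hoxb7 and Hoxb9, the other abundant members, had log2 differences of 0.17, -0.12 and -0.54 in tKO and 0.02, 0.19 and -0.23 in fl/fl, none of them past the threshold.

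The number of Hox genes called in tKO was 12 with all libraries. Without tKO sham replicate 1, 12 genes were called in tKO, 5 higher and 7 lower, where 39.2% of all tested genes were called. Without tKO sham replicate 3, 11 were called, 6 higher and 5 lower, where 37% of all were called.

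Cell-type markers moved with obstruction, and their part in the Hox changes was not tested. Of all tested genes 41% were called in tKO (21.6% higher and 19.4% lower) and 39.6% in fl/fl (20.9% higher and 18.7% lower). The summed level of 9 stroma and myofibroblast markers was 2440 to 4000 CPM in tKO UUO, against 461 to 685 CPM in tKO sham, and 1280 to 1520 CPM in fl/fl UUO, against 220 to 315 CPM in fl/fl sham. Of these 9, 6 rose in tKO and 5 in fl/fl. The 8 collecting duct principal cell markers summed to 261 to 326 CPM in tKO UUO, against 1240 to 3650 CPM in tKO sham, and to 349 to 415 CPM in fl/fl UUO, against 2140 to 4630 CPM in fl/fl sham, and all 8 fell in both genotypes. The 9 proximal tubule markers summed to 900 to 1350 CPM in tKO UUO, against 5840 to 7740 CPM in tKO sham, and to 1820 to 3190 CPM in fl/fl UUO, against 5330 to 9410 CPM in fl/fl sham. Of these, 8 fell in tKO and 6 in fl/fl. The 10 leukocyte markers summed to 579 to 1000 CPM in tKO UUO, against 155 to 212 CPM in tKO sham, and to 409 to 485 CPM in fl/fl UUO, against 135 to 165 CPM in fl/fl sham, with 7 higher in tKO and 8 in fl/fl. Without tKO sham replicate 1, 4 stroma and 7 leukocyte markers rose in tKO and 8 principal cell and 7 proximal tubule markers fell, and without tKO sham replicate 3 these counts were 6, 7, 8 and 7. Of all tested genes 39.2% were called without tKO sham replicate 1 and 37% without tKO sham replicate 3. No marker of these 4 lists was at 0 in a whole group.

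The response to obstruction was compared between the genotypes as an interaction. Of the 31 Hox genes, 0 were called by edgeR, where 0.0415% of all tested genes were called (0.0104% positive and 0.0312% negative). An unadjusted p under 0.05 was found for 1 gene, and DESeq2 called 1. Hoxd11 had the lowest adjusted p, 0.0688, with an interaction of 1.61 (log2, SE 0.33), the estimated rise with obstruction being larger in tKO. It was called without fl/fl UUO replicate 3 or without tKO sham replicate 1, the library that goes against its label, where 0.869% and 1.48% of all tested genes were called. All 6 tested Hoxd genes had a positive interaction, with a median of 0.31. They lie in the same cluster, and Hoxd3 and Hoxd4 share exons, so they are not separate observations.

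In sham kidneys, 8 of 31 Hox genes differed between tKO and fl/fl (25.8%, where 12.3% of all tested genes were called, 5.76% higher and 6.57% lower), 7 of them higher and 1 lower in tKO. The median Hox difference was 0.34 (log2), against 0.03 over all genes, and 26 of 31 estimates were positive. The mitochondrial share overlapped, with 33.7, 49.7 and 69.5% in tKO sham and 30.8 to 35.5% in fl/fl sham. The groups did not overlap in summed stroma markers, with 461 to 685 CPM in tKO sham and 220 to 315 CPM in fl/fl sham (5 of 9 higher), or in urothelial markers, with 55 to 219 CPM in tKO sham and 24 to 49.4 CPM in fl/fl sham (4 of 6 higher). They overlapped in podocyte markers, with 216 to 362 CPM in tKO sham and 172 to 237 CPM in fl/fl sham (2 of 6 higher), and in proximal tubule markers, with 5840 to 7740 CPM in tKO sham and 5330 to 9410 CPM in fl/fl sham (2 of 9 lower). Their part was not tested.

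Hoxa2, a gene of the hindbrain and the second pharyngeal arch, had 8.64, 11.3 and 11.2 CPM in tKO sham, against 4.76, 4.59 and 4.44 CPM in fl/fl sham. It was higher by 1.17 (log2, SE 0.26, edgeR adjusted p = 0.0143), and the call was lost without tKO sham replicate 2 (adjusted p = 0.063). The call was also lost with column totals (edgeR adjusted p = 0.147) and with only the compared groups in the fit (0.0723). These settings ended every other Hox call in sham too, with edgeR adjusted p of 0.104 to 0.436 and 0.0803 to 0.153. Of all tested genes 1.52% were called with column totals and 0.0363% with only the compared groups. The same-strand gene model Gm28308 covers 15% of the exon bases of Hoxa2. Hoxc8, a gene of thoracic vertebrae, had 10.5, 19.4 and 27.9 CPM in tKO sham, against 10.4, 7.62 and 6.37 CPM in fl/fl sham (log2 1.23, SE 0.29, edgeR adjusted p = 0.0171). Its lowest tKO library, the one that goes against its label, nearly met the highest fl/fl library. Hoxa7 had 88.7, 116 and 131 CPM in tKO sham, against 69.5, 81.6 and 63.9 CPM in fl/fl sham (log2 0.64, SE 0.16, edgeR adjusted p = 0.0192). Hoxa3, a gene of the third pharyngeal arch, had 17.5, 28.6 and 28.9 CPM in tKO sham, against 17.2, 13.5 and 11.9 CPM in fl/fl sham (log2 0.81, SE 0.21, edgeR adjusted p = 0.0249). In Hoxa3 too the lowest tKO library was replicate 1. Hoxb8 had 104, 144 and 103 CPM in tKO sham, against 86.2, 64.2 and 65.7 CPM in fl/fl sham (log2 0.70, SE 0.19, edgeR adjusted p = 0.0296). Hoxb5 had 44.3, 76.4 and 40.7 CPM in tKO sham, against 31.3, 26.9 and 25.8 CPM in fl/fl sham (log2 0.94, SE 0.27, edgeR adjusted p = 0.0344). Hoxd3 was also higher (log2 0.88, SE 0.27, edgeR adjusted p = 0.0452) and Hoxd11 lower (log2 -0.84, SE 0.25, adjusted p = 0.0381) in tKO sham. The summed Hoxd3, Hoxd4 and Gm28230 feature did not pass (log2 0.43, edgeR adjusted p = 0.146).

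The number of sham calls depended on single libraries. Without fl/fl sham replicate 1, 2 or 3 there were 4, 2 or 1 called genes, and without tKO sham replicate 1, 2 or 3 there were 9, 0 or 3. The share of all tested genes called moved too, to 6.75, 4.05 or 5.1% without fl/fl sham replicate 1, 2 or 3, and to 21.5, 2.46 or 5.79% without tKO sham replicate 1, 2 or 3. The 9 without tKO sham replicate 1 were all higher in tKO. Besides Hoxa2, no called gene kept its call in more than 3 of the 6 fits that left out a library, and Hoxd11 kept it in 0, with adjusted p values of 0.0525 to 0.112. Their log2 differences kept their sign in each of these fits.

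In obstructed kidneys, 7 of 31 Hox genes differed between tKO and fl/fl (22.6%, where 17.9% of all tested genes were called, 8.27% higher and 9.65% lower), with 6 higher and 1 lower in tKO. The median was 0.29 (log2), against 0.05 over all genes, and 24 of 31 estimates were positive. The Hoxd cluster had 5 of its 6 tested genes higher and all 6 estimates positive, with a median of 0.68. These neighbours, of which Hoxd3 and Hoxd4 share exons, are not separate observations. The same UUO libraries enter the obstruction interaction, so its Hoxd signs are not independent of these. Beside these, the stroma markers summed to 2440 to 4000 CPM in tKO UUO and 1280 to 1520 CPM in fl/fl UUO (3 of 9 higher), and the proximal tubule markers to 900 to 1350 CPM in tKO UUO and 1820 to 3190 CPM in fl/fl UUO (4 of 9 lower). The leukocyte markers summed to 579 to 1000 CPM in tKO UUO and 409 to 485 CPM in fl/fl UUO (2 of 10 higher), and the endothelial markers to 390 to 511 CPM in tKO UUO and 290 to 332 CPM in fl/fl UUO (2 of 7 higher). None of these 4 sums overlapped. Their part was not tested.

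Hoxa2 had 5.41, 7.6 and 10.3 CPM in tKO UUO, against 4.26, 3.83 and 3.0 CPM in fl/fl UUO (log2 1.07, SE 0.26, edgeR adjusted p = 0.0125). Hoxd3 had 18, 11 and 28.5 CPM in tKO UUO, against 7.39, 8.92 and 12.3 CPM in fl/fl UUO (log2 1.01, SE 0.27, edgeR adjusted p = 0.021). The Hoxd3 libraries overlapped, and those of Hoxa2 did not. Hoxd9 had 70.8, 69.8 and 84.8 CPM in tKO UUO, against 51.5, 55.9 and 56.5 CPM in fl/fl UUO (log2 0.46, SE 0.13, edgeR adjusted p = 0.0225). Hoxd11 had 12.5, 17.1 and 15.8 CPM in tKO UUO, against 8.04, 8.25 and 10.5 CPM in fl/fl UUO (log2 0.76, SE 0.22, edgeR adjusted p = 0.0252). Neither pair of groups overlapped. Hoxc10 was lower, with 18.8, 23.2 and 19.1 CPM in tKO UUO, against 32.5, 28.6 and 27.9 CPM in fl/fl UUO (log2 -0.54, SE 0.16, edgeR adjusted p = 0.0285). Hoxd4 had 44.6, 38.3 and 69.9 CPM in tKO UUO, against 30.8, 36.4 and 31.7 CPM in fl/fl UUO (log2 0.63, SE 0.19, edgeR adjusted p = 0.0318). In Hoxd3, Hoxd4, Hoxd9 and Hoxa2 the highest library was tKO UUO replicate 3. Hoxd10 was higher as well (log2 0.73, SE 0.24, edgeR adjusted p = 0.0435), and Hoxd8 did not pass (log2 0.29, SE 0.13, adjusted p = 0.122). The summed Hoxd3, Hoxd4 and Gm28230 feature was higher by 0.78 (edgeR adjusted p = 0.0142).

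Without tKO UUO replicate 3 there were 0 called genes, and without fl/fl UUO replicate 1 there was 1, against 4 without fl/fl UUO replicate 2 or 3 and 6 without tKO UUO replicate 1 or 2. Of all tested genes 9.75% were called without tKO UUO replicate 3 and 6.91% without fl/fl UUO replicate 1, against 8.42 to 14.2% in the other 4 of these fits. Hoxa2 lost its call without tKO UUO replicate 3 (edgeR adjusted p = 0.0607) or fl/fl UUO replicate 3 (0.0507), and Hoxd9 without tKO UUO replicate 3 (0.101) or fl/fl UUO replicate 1 (0.0916). Column totals as library size also ended the call of Hoxa2 (edgeR adjusted p = 0.0604) and every other Hox call of this comparison (0.0783 to 0.331). Of all tested genes 3.54% were called on that scale. Hoxd4 without tKO UUO replicate 3 had a log2 difference of 0.33 (adjusted p = 0.189). Hoxd3, Hoxd4 and Hoxc10 kept their calls in 3 of 6 such fits, Hoxd11 in 2 and Hoxd10 in 0.

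**Figure D5:**
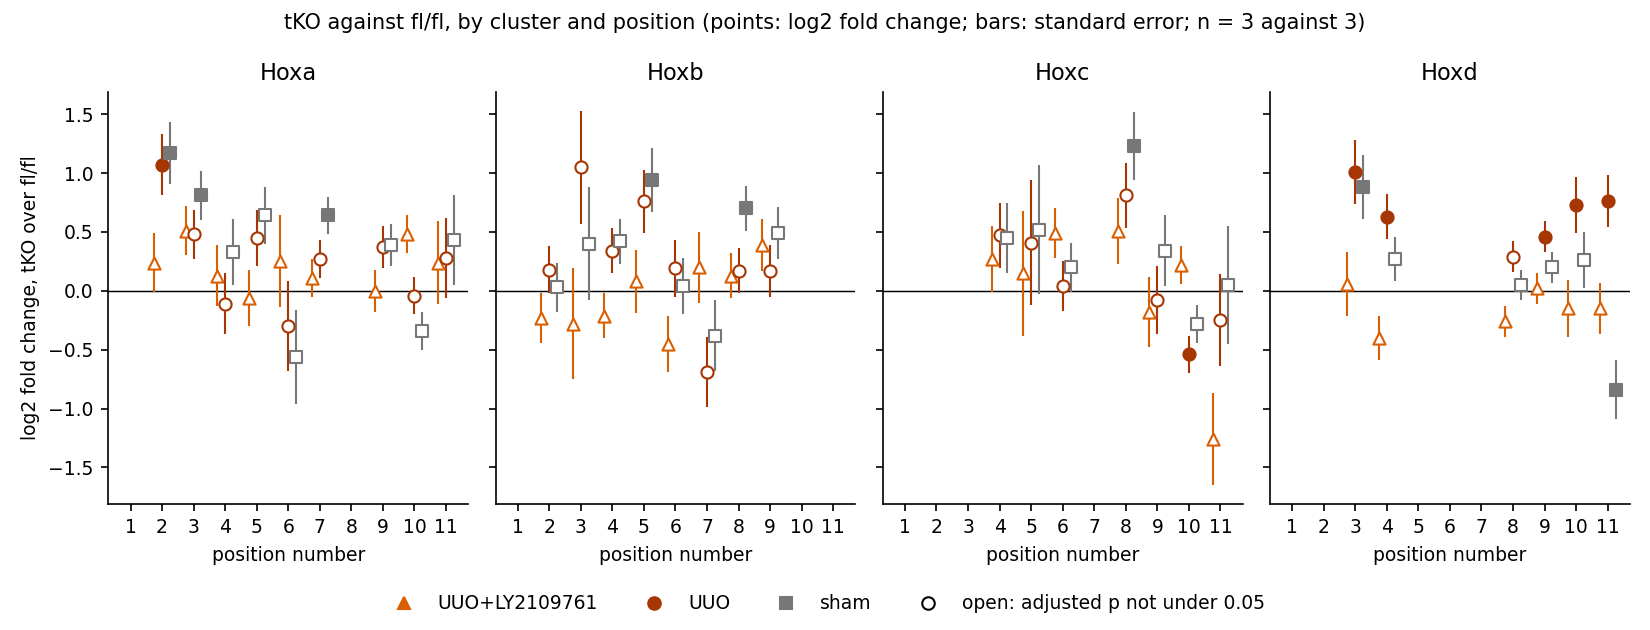
Log2 fold change of tKO over fl/fl (y axis) for tested Hox genes by cluster and position number (x axis). Triangles are UUO+LY, circles UUO and squares sham, bars are standard errors, and filled symbols have an adjusted p under 0.05 (n = 3 against 3). The 6 Hoxd circles lie above 0, the Hoxd11 square below 0, and none of the triangles is filled.

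With LY2109761 in both genotypes, 0 of 31 Hox genes differed between obstructed tKO and fl/fl kidneys by edgeR, where 2.98% of all tested genes were called (0.888% higher and 2.09% lower). An unadjusted p under 0.05 was found for 4, and DESeq2 called 1. In each fit that left out 1 library 0 Hox genes were called. The share of all genes was then 0.432, 0.117 or 2.95% without fl/fl UUO+LY replicate 1, 3 or 4. It was 3.55, 0.183 or 0.071% without tKO UUO+LY replicate 1, 2 or 3. The lowest adjusted p was that of Hoxc11, 0.0878, with 1.79, 2.66 and 4.02 CPM in tKO UUO+LY and 6.77, 6.54 and 6.98 CPM in fl/fl UUO+LY, a log2 difference of -1.26 (SE 0.39) between groups that do not overlap.

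With LY2109761 against DMSO in fl/fl obstructed kidney, 1 Hox gene differed, or 3.23%, where 5.15% of all tested genes were called (2.52% higher and 2.62% lower). Both depended on single libraries. The Pcmt1 level of fl/fl UUO+LY replicate 3 lies in the tKO range. Without that library 0 Hox genes and 0.0101% of all tested genes (0 higher and 2 lower) were called. That share was 0.239 or 1.34% without fl/fl UUO replicate 1 or 2, and 0.589% without fl/fl UUO+LY replicate 1. It was 4.53% without fl/fl UUO replicate 3 and 6.44% without fl/fl UUO+LY replicate 4. Hoxd3 had 21.2, 26.3 and 19.1 CPM in fl/fl UUO+LY, against 7.39, 8.92 and 12.3 CPM in fl/fl UUO. It was higher by 1.22 (log2, SE 0.27, edgeR adjusted p = 0.0256) with no overlap, and close to the 23.1, 19.9 and 25.9 CPM of fl/fl sham. The call was lost without fl/fl UUO replicate 1 (adjusted p = 0.121) or 2 (0.0732) and without fl/fl UUO+LY replicate 1 (0.0715) or 3 (0.134). The summed Hoxd3, Hoxd4 and Gm28230 feature did not pass (log2 0.42, adjusted p = 0.205). In tKO, 0 Hox genes were called by edgeR, where 0.171% of all tested genes were (0.0831% higher and 0.0883% lower), 4 had an unadjusted p under 0.05 and DESeq2 called 1. Hoxd11 had the lowest adjusted p there, 0.12, with 11.8, 8.09 and 7.51 CPM in tKO UUO+LY and 12.5, 17.1 and 15.8 CPM in tKO UUO (log2 -0.73, SE 0.22).

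The difference between genotypes in the response to LY2109761, an interaction, was called for 2 Hox genes (6.45%), 1 positive and 1 negative, below the 13.8% of all tested genes that were called (7.05% positive and 6.8% negative). Without fl/fl UUO+LY replicate 3, 0 Hox genes and 6.8% of all were called. The share of all genes was 6.99% without fl/fl UUO replicate 1 and 7.14% without tKO UUO+LY replicate 3. It ranged up to 14.4% over the 12 fits that left out a library. Hoxd4 had 40.8, 33.4 and 30.8 CPM in tKO UUO+LY and 44.6, 38.3 and 69.9 CPM in tKO UUO. Its fl/fl values were 43.8, 48.6 and 45.8 CPM in UUO+LY and 30.8, 36.4 and 31.7 CPM in UUO. The interaction was -1.02 (log2, SE 0.27, edgeR adjusted p = 0.0216), made of -0.54 in tKO and 0.48 in fl/fl, neither past the threshold on its own. It was lost without fl/fl UUO replicate 1 (adjusted p = 0.0589), fl/fl UUO+LY replicate 3 (0.0554), tKO UUO+LY replicate 2 (0.0535) or tKO UUO+LY replicate 3 (0.061), and the summed locus gave -0.83 (adjusted p = 0.0534). Hoxc10 had 26.2, 26.6 and 29.3 CPM in tKO UUO+LY and 18.8, 23.2 and 19.1 CPM in tKO UUO. Among fl/fl kidneys it had 24.6, 21.7 and 24.3 CPM in UUO+LY and 32.5, 28.6 and 27.9 CPM in UUO. Its interaction was 0.76 (log2, SE 0.22, edgeR adjusted p = 0.0351), made of 0.43 in tKO and -0.34 in fl/fl, and was kept in 4 of 12 fits that left out a library, with adjusted p up to 0.0918. The 8 libraries whose removal ended it were fl/fl UUO replicates 1 and 2, fl/fl UUO+LY replicates 1 and 3, tKO UUO replicates 1 and 3, and tKO UUO+LY replicates 2 and 3. All 6 tested Hoxd genes had a negative interaction, with a median of -0.90. The tKO UUO and fl/fl UUO libraries also enter the obstruction interaction and the tKO against fl/fl comparison in UUO. The Hoxd signs of these comparisons are therefore not independent. The 6 genes lie in the same cluster, and Hoxd3 and Hoxd4 share exons, so they are not separate observations. Those of Hoxd8 (-0.54, adjusted p = 0.0532) and Hoxd11 (-0.92, adjusted p = 0.058) did not pass in edgeR. Stroma markers had 5 of 9 negative interactions called (2 without fl/fl UUO+LY replicate 3), with 1660 to 2390 CPM in tKO UUO+LY and 2440 to 4000 CPM in tKO UUO, and 1830 to 2110 CPM in fl/fl UUO+LY and 1280 to 1520 CPM in fl/fl UUO. Their part was not tested.

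Within the spans of the 4 clusters lie 47 other annotated genes, of which 18 were tested. Most of those tested are long non-coding RNAs, as are most of those called. Several lie on the strand opposite to a Hox gene, where reads of the pair cannot be told apart. For UUO over sham in tKO, 2 rose and 3 fell, where 41% of all tested genes were called. In fl/fl those called all fell, where 39.6% of all tested genes were called. Hoxb3os, antisense to Hoxb3 and Hoxb2, averaged 17.5 ± 1.14 CPM in tKO UUO and 38.1 ± 2.55 CPM in tKO sham (SD, n = 3 each), and fell by 1.12 (log2, edgeR adjusted p = 0.00271). In fl/fl it averaged 17.6 ± 6.08 CPM in UUO and 49.8 ± 10.8 CPM in sham, and fell by 1.5 (adjusted p = 0.000285). Hoxd3os1 fell by 0.71 in tKO (edgeR adjusted p = 0.0179) and by 1.11 in fl/fl (adjusted p = 0.000901), and Gm53 by 0.78 in tKO (0.00247) and 0.56 in fl/fl (0.02). Hoxb5os and Hotairm1, a non-coding RNA of the Hoxa cluster, fell in fl/fl by 1.05 (edgeR adjusted p = 0.00482) and 0.70 (0.018). In tKO, Hoxa11os rose by 0.99 (edgeR adjusted p = 0.01) beside Hoxa11, and Gm28309, which overlaps 10.8% of the exon bases of Hoxd11 on the same strand, rose by 2.81 (adjusted p = 0.00436) at a mean of 1.11 CPM in UUO and 0.224 CPM in sham. Between genotypes, Hoxb5os (log2 1.10, edgeR adjusted p = 0.012), 5730596B20Rik (1.26, adjusted p = 0.0124) and Hoxa11os (0.99, adjusted p = 0.0209) were higher in tKO UUO than in fl/fl UUO. Gm11539 was lower in tKO sham (log2 -0.81, edgeR adjusted p = 0.0458), and Gm15050 (-1.37, adjusted p = 0.0425) and Hoxb3os (-1.01, adjusted p = 0.0479) in tKO UUO+LY. In fl/fl obstruction, Hotairm1 was higher (log2 0.85, edgeR adjusted p = 0.0374) and Gm56051 lower (-3.90, adjusted p = 0.0441) with LY2109761. Gm56051 was near the floor, with a mean of 0.0554 CPM in fl/fl UUO+LY and 0.912 CPM in fl/fl UUO. The interaction of genotype and LY2109761 was called for Hoxb5os (-2.04, edgeR adjusted p = 0.00419), Hotairm1 (-1.28, adjusted p = 0.0145), Gm15050 (-1.88, adjusted p = 0.0191) and Mir196a-1 (1.28, adjusted p = 0.0436).

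Among the partners and regulators of Hox proteins, the retinoic acid pathway, whose signal switches on Hox genes in embryos, is described first. Of its 15 tested genes 4 rose and 3 fell in tKO, and 5 rose and 2 fell in fl/fl, with a median of -0.29 in tKO and -0.08 in fl/fl, against 0.02 over all genes. Counts in this and the next lists stand beside 41% of all tested genes called in tKO (21.6% higher and 19.4% lower) and 39.6% in fl/fl (20.9% higher and 18.7% lower). Aldh1a2, which makes retinoic acid, averaged 118 ± 13.2 CPM in tKO UUO and 5.73 ± 2.25 CPM in tKO sham, and rose by 4.40 (log2, edgeR adjusted p = 1.97e-08). In fl/fl it averaged 101 ± 11.6 CPM in UUO and 3.05 ± 0.271 CPM in sham, and rose by 5.04 (adjusted p = 5.49e-09). Stra6, a retinol uptake receptor, rose by 6.01 in tKO (edgeR adjusted p = 5.05e-08) and 6.48 in fl/fl (adjusted p = 3.05e-08). Rdh10, which oxidises retinol, rose by 1.18 in tKO (edgeR adjusted p = 0.000193) and 1.29 in fl/fl (adjusted p = 8.72e-05). In tKO against fl/fl UUO, Rxra (log2 -0.79, edgeR adjusted p = 0.00739), Rdh10 (-0.72, adjusted p = 0.02) and Rxrb (-0.40, adjusted p = 0.0493) were lower.

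Of 9 TALE cofactors, 4 rose and 0 fell in tKO, and 2 rose and 0 fell in fl/fl, with a median of 0.69 in tKO and 0.55 in fl/fl. That share is near the 41% of all genes called in tKO and below the 39.6% in fl/fl. Meis3 averaged 28.8 ± 1.33 CPM in tKO UUO and 6.25 ± 1.09 CPM in tKO sham, and rose by 2.20 (log2, edgeR adjusted p = 6.07e-07). In fl/fl it averaged 16.5 ± 0.552 CPM in UUO and 3.18 ± 0.75 CPM in sham, and rose by 2.37 (adjusted p = 3.14e-07). Pknox2 rose by 2.12 in tKO (edgeR adjusted p = 0.0131) and 2.32 in fl/fl (adjusted p = 0.00762), and Meis2 (0.61, adjusted p = 0.0258) and Pbx4 (0.65, adjusted p = 0.0317) in tKO. Meis3 (log2 0.81, edgeR adjusted p = 0.00776), Meis2 (0.73, adjusted p = 0.0221) and Pbx4 (0.80, adjusted p = 0.0232) were also higher in tKO UUO than in fl/fl UUO, and Meis3 was higher in tKO sham (0.98, adjusted p = 0.00896).

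Polycomb proteins keep Hox genes silent. Of 22 genes, 3 rose and 1 fell in tKO, and 6 rose and 1 fell in fl/fl, fewer in each than the 41 and 39.6% of all genes called. Phc2 rose in both (log2 1.10 in tKO, edgeR adjusted p = 1.09e-05, and 0.99 in fl/fl, adjusted p = 2.83e-05). In tKO, Bmi1 (0.52, edgeR adjusted p = 0.014) and Rnf2 (0.38, adjusted p = 0.0223) rose. In fl/fl, Ezh2, the H3K27 methyltransferase (1.11, edgeR adjusted p = 0.000726), and Phf19 (1.56, adjusted p = 0.00246) rose and Ring1 fell (-0.55, adjusted p = 0.0161). Trithorax genes, which keep Hox genes active, had 0 of 12 higher and 1 lower in each genotype: Men1 in tKO (-0.71, edgeR adjusted p = 0.0131) and Kmt2c in fl/fl (-0.48, adjusted p = 0.0389). Of the 4 tested upstream regulators, 3 rose in tKO and 2 in fl/fl, among them Egr2 by 4.22 in tKO (edgeR adjusted p = 6e-05) and 5.99 in fl/fl (adjusted p = 9.05e-06). Ctcf rose in tKO (0.87, edgeR adjusted p = 0.000417). Of 17 tested kidney development genes, 1 rose and 8 fell in tKO, and 1 rose and 6 fell in fl/fl, with a log2 change of Lhx1 of -1.88 in tKO (edgeR adjusted p = 1.54e-06) and -1.19 in fl/fl (adjusted p = 7.05e-05). Sall1 (-0.92, edgeR adjusted p = 0.000625), Pax2 (-1.46, adjusted p = 0.000714) and Osr1 (-1.40, adjusted p = 0.00904) fell in tKO, and Gfra1 (-2.13, adjusted p = 0.00125) and Osr1 (-1.38, adjusted p = 0.00783) fell in fl/fl, where Foxd1, the stromal progenitor factor, rose (1.31, adjusted p = 0.00387).

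The same lists were read between genotypes and with LY2109761. For tKO over fl/fl, 12.3% of all tested genes were called in sham, 17.9% in UUO and 2.98% in UUO+LY. For LY2109761, 5.15% were called in fl/fl and 0.171% in tKO. In sham kidneys, Pax8 (log2 0.82, edgeR adjusted p = 0.0198), Foxd1 (1.30, adjusted p = 0.0224), Pcgf2 (0.61, adjusted p = 0.0416), Ezh2 (0.70, adjusted p = 0.0481), Aldh1a2 (0.87, adjusted p = 0.0296) and Rara (0.55, adjusted p = 0.0359) were higher in tKO, and Dpy30 was lower (-1, adjusted p = 0.0269). In UUO kidneys, Suz12 was higher in tKO (1.35, edgeR adjusted p = 0.0391), and Rbbp7 (-0.83, adjusted p = 0.00744) and Dpy30 (-0.80, adjusted p = 0.0461) were lower. In UUO+LY kidneys Men1 was higher in tKO (1.52, edgeR adjusted p = 0.00606) and Ring1 lower (-1, adjusted p = 0.0127). With LY2109761 in fl/fl obstruction, Ring1 was higher (0.72, edgeR adjusted p = 0.0285), and Rbbp7 (-0.72, adjusted p = 0.0349), Men1 (-0.81, adjusted p = 0.0399), Rxrb (-0.55, adjusted p = 0.0337) and Lhx1 (-0.81, adjusted p = 0.0247) were lower. In tKO obstruction Men1 was higher with LY2109761 (1.20, edgeR adjusted p = 0.04). Interactions of genotype and LY2109761 were called for 3 of 9 TALE cofactors, 4 of 22 Polycomb genes and 1 of 12 Trithorax genes. They were also called for 3 of 15 retinoic acid genes and 2 of 17 kidney development genes. Of all tested genes 13.8% were called. The lowest adjusted p were those of Men1 (2.01, edgeR adjusted p = 0.00185) and Ring1 (-1.49, adjusted p = 0.00201).

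The gene lists were also read without the libraries in doubt. Without tKO sham replicate 1, where 39.2% of all genes were called for UUO over sham in tKO, 1 of 9 TALE cofactors rose, and Pknox2 (log2 1.85, edgeR adjusted p = 0.057), Meis2 (0.36, adjusted p = 0.0811) and Pbx4 (0.55, adjusted p = 0.109) lost their calls. Of the retinoic acid genes 4 rose and 2 fell, of the Polycomb genes 3 rose and 1 fell, and of the kidney development genes 1 rose and 6 fell. Without tKO sham replicate 3, where 37% of all genes were called, 5 TALE cofactors rose, 4 retinoic acid genes rose and 5 fell, 2 Polycomb genes rose and 3 fell, and 0 kidney development genes rose and 8 fell. Rnf2 (edgeR adjusted p = 0.0591) and Hoxd3os1 (adjusted p = 0.067) lost their calls there. Between the sham groups, Foxd1 lost its call without tKO sham replicate 1 (edgeR adjusted p = 0.0509). Dpy30 (edgeR adjusted p = 0.0848), Pcgf2 (0.0957), Aldh1a2 (0.111), Gm11539 (0.142) and Ezh2 (0.149) lost theirs without tKO sham replicate 3. Without fl/fl UUO+LY replicate 3, 0 genes of these lists or among the other genes of the clusters were called for LY2109761 in fl/fl. Of all tested genes 0.0101% were called there. Of tKO over fl/fl in UUO+LY, the call of Men1 was kept and those of Ring1 (edgeR adjusted p = 0.0679), Gm15050 (0.141) and Hoxb3os (0.193) were lost. The LY2109761 interaction was then called for 2 TALE cofactors, 2 Polycomb genes, 1 Trithorax gene, 1 retinoic acid gene and 1 kidney development gene, where 6.8% of all genes were called, and Mir196a-1 lost its call (edgeR adjusted p = 0.111).

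The other tables of the series hold lists of genes that their authors chose on the same libraries, so no test is given. The table for HK-2, a line of immortalised human proximal tubule cells, lists 379 genes, and HOXA11 is the only HOX gene among them. Its deposited counts were 50, 53 and 41 in PCMT1 KO cells, against 82, 97 and 150 in WT cells. These counts are not scaled, and no library size was used, so a difference in depth cannot be told apart from one in HOXA11. The table for whole kidney of Pcmt1 KO and WT mice lists 410 genes and 0 Hox genes.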

How the data were processed

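The deposited counts per gene of the obstruction experiment were used as they stand; fastp, HISAT2 and StringTie are the tools in the submitters' processing notes, without versions, and GRCm38 and mm10 are among the builds. The deposited FPKM values, scaled by the authors on gene length and total depth, served only to compare levels between genes. How strand and overlapping genes were counted was not given in the sources used here. Gene positions are those of GENCODE M21 (GRCm38) by gene ID, because the positions in the count table differ from GRCm38 for all 39 members. Libraries were grouped by the labels, 3 to a group, with 0 sample columns left unmapped. Depth was 13015669 to 19565376 counts, and low-count genes carry counting error in addition to the spread between libraries; all replicate pairs differed by more than sampling noise, with a chi-square of at least 31.8 per degree of freedom.

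Counts were analysed with edgeR 4.0.16 (limma 3.58.1, R 4.3.3), using filterByExpr, TMM factors and a quasi-likelihood fit of all 6 groups with 12 residual degrees of freedom, and 9 comparisons, each adjusted by Benjamini-Hochberg over 19256 genes at 0.05. Alternatives were RLE factors, column totals, no mitochondrially encoded genes, no count filter, DESeq2 1.42.0, only the compared groups, a replicate term and leaving out each library; summing Hoxd3, Hoxd4 and Gm28230, and reading the gene lists without the libraries in doubt, were chosen after seeing the data. Members and gene lists (TALE cofactors, Polycomb, Trithorax, retinoic acid pathway, upstream regulators, kidney development, cell-type markers) were chosen with earlier results of these data known. The ratios within a library set genes called in opposite directions against each other and carry no test. Every member past the threshold is named, with every library for up to 6 of them in each comparison by smallest p, and for the 6 of highest mean FPKM; from the other lists, at most 4 in each comparison are named. A few genes are neither named nor plotted here and remain in the counts.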

Additional observations from a re-analysis of the deposited data

Results flagged for a closer look

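The response to LY2109761 in obstructed kidney differed between the genotypes, by the test of the interaction itself, for 2 of 31 tested Hox genes (6.45%), below the 13.8% of all tested genes. For Hoxd4 the interaction was -1.02 (log2, SE 0.27, edgeR adjusted p = 0.0216), with a change of -0.54 in tKO and 0.48 in fl/fl. For Hoxc10 it was 0.76 (log2, SE 0.22, edgeR adjusted p = 0.0351), with a change of 0.43 in tKO and -0.34 in fl/fl. The fits that left out 1 library gave -1.19 to -0.73 for Hoxd4 and 0.69 to 0.87 for Hoxc10, so the sign was kept in each of the 12 fits, but the call was lost in 4 of 12 for Hoxd4 and in 8 of 12 for Hoxc10. Column totals (edgeR adjusted p = 0.245 for Hoxd4 and 0.355 for Hoxc10) and a replicate block (0.0559 and 0.0573) also ended both calls, the summed locus ended that of Hoxd4 (0.0534), and no count filter ended that of Hoxc10 (0.0797).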

How the results depend on the processing

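Over 41 calls of a Hox gene in a comparison, RLE factors and DESeq2 kept all 41, and leaving out 1 library kept 169 of 258 and reversed 0. With column totals, which move the median of all genes, 13 were kept, 24 lost and 4 reversed: Hoxb4 (0.57), Hoxd4 (0.21) and Hoxd8 (0.28) in tKO UUO over sham and Hoxd9 (0.32) in fl/fl. On that scale 21 members were called in tKO UUO over sham (21 higher, 0 lower), 14 in fl/fl (14 higher, 0 lower), beside 60.7 and 44.4% of all genes called higher, and 0 in each of tKO over fl/fl in sham, tKO over fl/fl in UUO, LY2109761 in fl/fl and the LY2109761 interaction, where 1.52, 3.54, 0.13 and 1.5% of all genes were called. DESeq2 called 4 members for LY2109761 in fl/fl, 4 for the LY2109761 interaction, and 1 each for the obstruction interaction, tKO over fl/fl in UUO+LY and LY2109761 in tKO, beside 10.5, 18.4, 2.07, 7.59 and 4.32% of all genes. With no count filter (36 members tested), 3 were called in tKO over fl/fl in sham, 3 in UUO and 1 in the LY2109761 interaction, beside 4.5, 7.1 and 4.78% of all genes. With only the compared groups in the fit, 0 were called in tKO over fl/fl in sham, 0 for LY2109761 in fl/fl and 5 in the LY2109761 interaction, beside 0.0363, 0.303 and 16.6% of all genes.

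Leaving out 1 library, the number called ranged from 9 to 12 for UUO over sham in tKO and from 9 to 12 in fl/fl, from 0 to 9 for tKO over fl/fl in sham, 0 to 6 in UUO and 0 to 0 in UUO+LY, from 0 to 0 for LY2109761 in tKO and 0 to 2 in fl/fl, and from 0 to 1 for the obstruction and 0 to 4 for the LY2109761 interaction. Libraries with the same replicate number did not deviate together (correlations of -0.15 to 0.20, median 0, over 40 pairs), so the numbers are not taken to pair them. With a replicate block, 11 members were called in tKO and 11 in fl/fl for UUO over sham, 6 for tKO over fl/fl in sham and 5 in UUO, 1 for LY2109761 in fl/fl and 0 for the LY2109761 interaction, where 13.2% of all genes were called. Hoxc11 had 5 to 144 counts in a library and Hoxd11 7 to 396, and the part of depth in their standard errors was not tested.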

Other observations

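A few members had 1 library far from the rest of its group. Hoxb3 had 258 counts in fl/fl UUO replicate 1, against 1035 and 767 in the other 2 libraries, and 327 counts in tKO UUO+LY replicate 2, against 1609 and 831. Hoxc5 had 17 counts in tKO UUO replicate 1, against 225 and 150 in the other 2. Antisense Hoxb3os lies over 52.9% of the exon bases of Hoxb3, and Hoxc5 shares 5.37% of its exon bases with Hoxc10 on the same strand. Neither gene was called in a comparison, and these members were picked after their values were seen.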
